A study of Arabidopsis thaliana with 4 samples.

Results

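The genetic system of the chloroplast comprises the genes on the plastid genome that make, process and maintain its own gene products. From all probe sets of the array, those with a single gene entry on the chloroplast genome and a symbol of rps or rpl plus a number, rpoA, rpoB, rpoC1, rpoC2, matK, clpP, accD, ycf1 or ycf2 were taken. This gave 22 of 69 chloroplast-encoded genes and of 13356 genes with a named probe set in all, each with 1 probe set, while ycf1 and ycf2 had no probe set with a single entry. Of these 22 genes, 15 encode ribosomal proteins (8 of the small and 7 of the large subunit), 4 encode RNA polymerase subunits and 3 are the other genes matK, clpP and accD. The gene accD serves fatty acid synthesis and is counted with the genetic system genes by this rule only. A further 7 probe sets, which match both copies of a gene in the inverted repeat of the chloroplast genome, carry 2 gene entries and were not counted as members.

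Chloroplasts descend from cyanobacteria and keep bacterial-type ribosomes and a bacterial-type RNA polymerase, whose core subunits alpha, beta, beta′ and beta″ are the products of rpoA, rpoB, rpoC1 and rpoC2. The genes rps and rpl encode part of the small and large ribosomal subunits, and the remaining plastid ribosomal proteins, the sigma factors and a second, phage-type RNA polymerase are encoded in the nucleus. The product of matK is a maturase for introns, clpP encodes the proteolytic subunit ClpP1 of the Clp protease of the stroma, and accD encodes a subunit of the acetyl-CoA carboxylase that starts fatty acid synthesis. Many of these genes are transcribed together with their neighbours, so that probe sets of adjacent genes can report on the same RNA and are not independent.

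Wild-type seedlings of Arabidopsis thaliana, accession Ler, were 7 d old and kept under low light, and each of 4 RNA samples was measured on 1 Affymetrix ATH1 array, where a transcript is read by a set of short oligonucleotides, its probe set. The 4 groups were total RNA of non-stressed seedlings, total RNA after 12 h of hypoxia, large-polysome RNA of non-stressed seedlings (12 h) and large-polysome RNA after 12 h of hypoxia. The study asked how hypoxia changes the abundance of transcripts and their association with large polysomes, which are RNAs carrying many ribosomes. No time is given for total RNA of non-stressed seedlings, so sampling time may differ in every ratio that uses this array. Whole seedlings were used, and fewer cells of a type cannot be told apart from less RNA per cell.

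A single array stands for each group, so there is no estimate of the spread between samples, no p-value is given and no difference has a replicate check. Each array also ran on a fluidics module of its own, so module and group cannot be told apart. All intensities are linear values that the authors had scaled to the same mean on every array, so a value says how bright a probe set was compared with the rest of that array. An intensity of 139 served as the floor, and a ratio with 1 side below it is a bound. A 2-fold ratio, a log2 ratio of 1 or -1, served to count genes. As a measure of probe error, probe sets of the same gene were compared in their log2 hypoxia ratio; the median difference was 0.33 in total RNA (62 genes) and 0.37 in large-polysome RNA (30 genes), and the 95th percentiles of these differences were 0.95 and 1.302. Green tissue could not be checked, as none of 8 marker genes had a named probe set. The summed intensity of the 3 named of 6 root markers (PYK10, EXPA18 and EXPA7) was 20411 (control) and 14516 (hypoxia) in total RNA, against 13409.7 and 14519 in large-polysome RNA. PYK10 made up most of each sum, and its log2 hypoxia ratio was -0.44 in total RNA and 0.16 in large-polysome RNA, against -1.82 and -1.15 for EXPA18. For EXPA7, below the floor on both hypoxia arrays, these ratios were -1.29 or lower and -0.22 or lower. For an actin control, 3′ signal over 5′ signal was 5.46 (control) and 5.53 (hypoxia) in total RNA, against 10.9 (control) and 7.34 (hypoxia) on large polysomes. The chloroplast-encoded genes held 5.13% (control) and 4.28% (hypoxia) of the array's signal in total RNA, against 3.62% (control) and 5.16% (hypoxia) on large polysomes. The part of root tissue and of RNA quality in the results was not tested.

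The arrays grouped differently for chloroplast-encoded than for nuclear genes. Across 5765 nuclear genes above the floor on all 4 arrays, the log2 intensities of total RNA of control seedlings were closest to those of large-polysome RNA of control seedlings (Pearson r 0.928), and total RNA in hypoxia to large-polysome RNA in hypoxia (r 0.954). Across the 20 genetic system genes that no array placed below the floor, total RNA of control seedlings was closest to large-polysome RNA in hypoxia (r 0.958), and the lowest r was between the 2 large-polysome arrays (0.877). By Spearman's rho the closest pair of these 20 genes was instead the 2 total RNA arrays (0.949), with 0.913 for total RNA of control seedlings and large-polysome RNA in hypoxia. The 46 other chloroplast-encoded genes above the floor gave r 0.974 and rho 0.971 for that pair, the highest of their 6 pairs by both measures. These correlations are across genes that share the arrays, and genes are not independent replicates.

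The order of the arrays was then read gene by gene. In 7 of the 22 genes, total RNA of control seedlings and large-polysome RNA in hypoxia were both above the other 2 arrays, against 4.76% of all genes with an array above the floor, and in 4 genes both were below them, against 5.65%. Either order was found in 10.4% of these genes, in 29 of 47 other chloroplast-encoded genes and in 11 of the 22 genetic system genes, which comprised 6 of 15 ribosomal protein genes, 3 of 4 polymerase genes and 2 of the 3 others. Its share was 50% in the genetic system genes and 61.7% in the other chloroplast-encoded genes, a difference that was not tested.

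**Figure D1:**
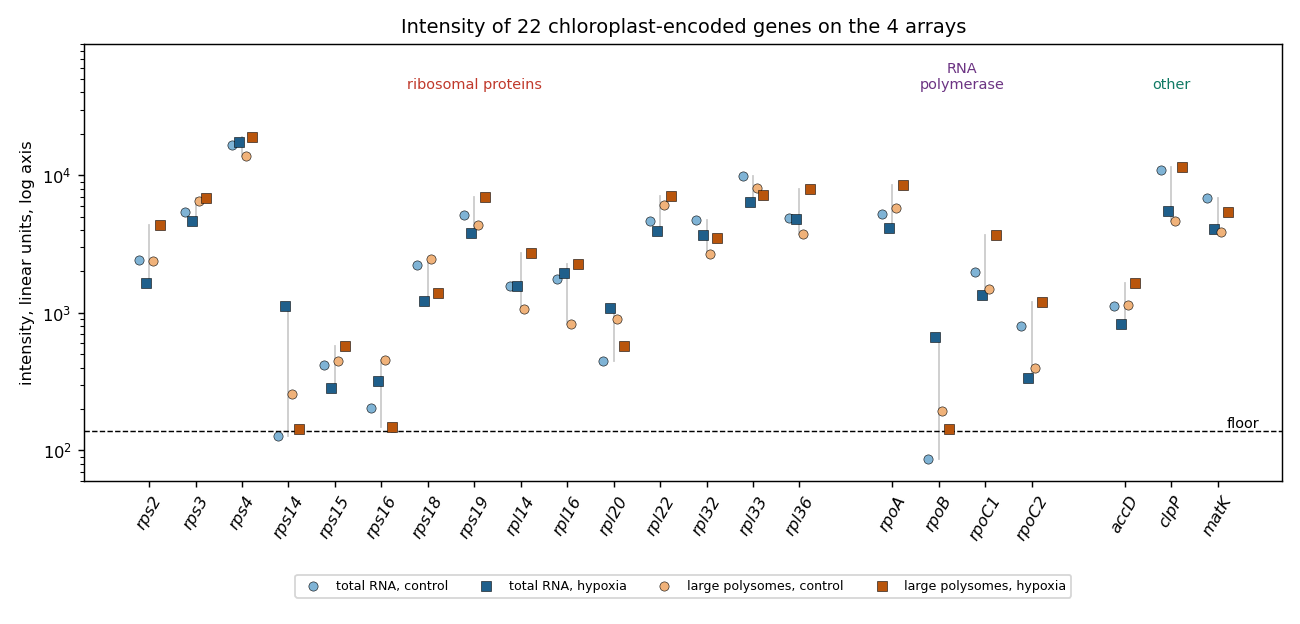
Intensity (linear units on a log axis) of each of the 22 genes on each of the 4 arrays, 1 point per array with a grey line over their range, by gene class; the dashed line is the floor of 139. The genes rps14 and rpoB lie below the floor in total RNA of control seedlings and highest in total RNA in hypoxia, while 14 of the 22 genes are highest in large-polysome RNA in hypoxia.

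Of the RNA polymerase genes, rpoA, rpoC1 and rpoC2 were lower in hypoxia in total RNA and higher on large polysomes, and rpoB showed the opposite signs. The gene rpoC2, for the beta″ subunit, had intensities of 806 (control) and 337 (hypoxia) in total RNA and of 396 (control) and 1205 (hypoxia) in large-polysome RNA. It was thus low in total RNA in hypoxia and on control polysomes, and highest on large polysomes in hypoxia. Its log2 ratio of hypoxia over control was -1.26 in total RNA and 1.61 in large-polysome RNA. For rpoC1, for the beta′ subunit, the intensities in the same order were 1966, 1340.4, 1481 and 3677, with the same arrays high and low and log2 hypoxia ratios of -0.55 and 1.31.

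The gene rpoB, for the beta subunit, lies directly beside rpoC1 and is known to be transcribed with rpoC1 and rpoC2, yet its values ran the other way. Its intensities were 87.3, 665, 194 and 143 in the same order of arrays. It was below the floor in total RNA of control seedlings and barely above it on large polysomes in hypoxia. Total RNA in hypoxia was at least 4.78-fold higher than in control (log2 at least 2.26), and the log2 ratio in large-polysome RNA was -0.44. The gene rpoA, for the alpha subunit, lies elsewhere, at the end of a group of ribosomal protein genes. Its intensities were 5266, 4118, 5736 and 8457, and its log2 hypoxia ratios of -0.35 and 0.56 had the signs of rpoC1 and rpoC2 at a smaller size.

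Among the small-subunit ribosomal protein genes, rps14 had the highest ratio of all 22 genes in total RNA. Its intensities were 128 (control) and 1130.4 (hypoxia) in total RNA and 259 (control) and 144 (hypoxia) in large-polysome RNA. Only total RNA in hypoxia stood far above the floor. It was at least 8.13-fold higher there than in control, against a log2 ratio of -0.85 in large-polysome RNA. The gene rps16, which contains an intron, had 204, 319, 453 and 148 in the same order, highest on control polysomes and lowest on polysomes in hypoxia, with log2 hypoxia ratios of 0.64 and -1.62. For both genes at least 1 side of each large ratio lies close to the floor.

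None of the other small-subunit genes reached 2-fold between hypoxia and control in either fraction. The gene rps2 had 2414, 1635, 2388 and 4349, with log2 hypoxia ratios of -0.56 in total RNA and 0.87 in large-polysome RNA, so that large-polysome RNA in hypoxia stood above the other 3 arrays. For rps19 the values were 5149, 3833, 4371 and 6895 (log2 -0.43 and 0.66) and for rps15 they were 416, 283, 449 and 578 (log2 -0.56 and 0.36), both again highest on polysomes in hypoxia. The gene rps3 differed little, with 5418, 4679, 6547 and 6875 and log2 ratios of -0.21 and 0.07. For rps4 the intensities were 16556, 17499, 13805 and 18852, with log2 ratios of 0.08 and 0.45. The gene rps18 was lower in hypoxia in both fractions, from 2233 to 1218 in total RNA and from 2462 to 1394 in large-polysome RNA (log2 -0.87 and -0.82), and its large-polysome over total ratio was nearly the same in both conditions (log2 0.14 and 0.20).

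In the large subunit, rpl20 was the gene whose values ran opposite to most. Its intensities were 448, 1077, 905 and 576 in the order of arrays used above, with total RNA in hypoxia highest and total RNA of control seedlings lowest. It was 2.40-fold higher in hypoxia in total RNA (log2 1.27) and had a log2 ratio of -0.65 in large-polysome RNA. The genes rpl14, rpl16 and rpl36, which lie near each other, showed another pattern. They had little difference between the total RNA arrays and the lowest value on control polysomes. The gene rpl16, which contains an intron, had 1750 (control) and 1950.5 (hypoxia) in total RNA but 824 and 2256 in large-polysome RNA, a log2 ratio of 0.16 against 1.45. For rpl14 the values were 1556 and 1574 against 1075 and 2711 (log2 0.02 and 1.33). For rpl36 they were 4852 and 4770.04 against 3751 and 7961 (log2 -0.02 and 1.09).

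The other large-subunit genes differed by under 2-fold between any 2 arrays. The gene rpl22 had 4615, 3914, 6123 and 7039, with log2 hypoxia ratios of -0.24 and 0.20, and was higher on both large-polysome arrays than on both total RNA arrays. For rpl32 the values were 4726, 3683, 2674 and 3516 (log2 -0.36 and 0.40), highest in total RNA of control seedlings. For rpl33 they were 9854, 6413, 8023 and 7178 (log2 -0.62 and -0.16), lower in hypoxia in both fractions, as for its neighbour rps18.

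Of the genes outside ribosome and polymerase, clpP had intensities of 11009.5 (control) and 5530.5 (hypoxia) in total RNA and of 4619.8 (control) and 11509.8 (hypoxia) in large-polysome RNA. Total RNA of control seedlings and large-polysome RNA in hypoxia were alike and both above the other 2 arrays, with log2 hypoxia ratios of -0.99 in total RNA and 1.32 in large-polysome RNA. The maturase gene matK had 6828, 4053, 3883 and 5416, the same order of arrays at a smaller size (log2 -0.75 and 0.48). For accD the values were 1129.7, 836, 1146 and 1651 (log2 -0.43 and 0.53), with the control arrays of both fractions alike.

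In the comparison of hypoxia with control, 13 of the 22 genes were lower in total RNA and higher in large-polysome RNA, 4 (rps14, rps16, rpl20 and rpoB) were higher in total RNA and lower in large-polysome RNA, 3 (rps4, rpl14 and rpl16) were higher in both and 2 (rps18 and rpl33) were lower in both. The 2 ratios, which share no array, thus had opposite signs in 17 genes, against 21.4% of 7057 genes measured in both fractions and 35 of 47 other chloroplast-encoded genes. After scaling on the spiked controls 15 of the 22 genes had opposite signs against 38.5% of all genes, and with the floor at the 60th percentile 14 of 19 against 19.9%. Centred on chloroplast-encoded genes they numbered 14 of 22 against 45.3%, with 7 genes in each direction. Many of these single ratios lie within the probe error given above. In total RNA, rps14, rpoB and rpl20, 3 of 22, had ratios of 2-fold or more against 5.42% of all genes and 1 (rpoC2) at least 2-fold lower against 8.72%, together 4 of 22 against 14.1%. In large-polysome RNA, 6 genes (rpoC1, rpoC2, clpP, rpl14, rpl16 and rpl36) were higher by 2-fold or more against 8.07% of all genes, and 1 (rps16) lower against 10%, together 7 of 22 against 18.1%. This balance turned with the scaling, to 2 higher and 4 lower on the spiked controls and to 1 higher and 4 lower when centred on chloroplast-encoded genes. Of the 47 other chloroplast-encoded genes, 8 were at least 2-fold higher and 3 lower in total RNA. In large-polysome RNA 13 of the 47 were higher and 5 lower, a share of 27.7% higher against 27.3% of the 22 genes.

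**Figure D2:**
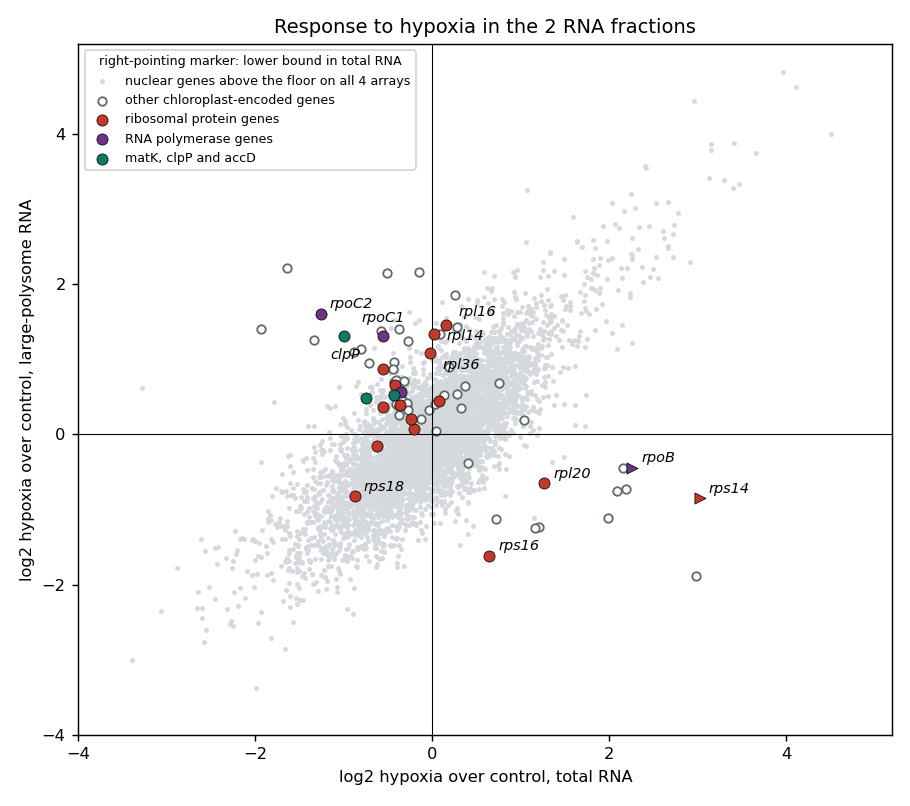
Log2 ratio of hypoxia over control in total RNA (horizontal) and in large-polysome RNA (vertical) for the 22 genes by class, the 47 other chloroplast-encoded genes and nuclear genes above the floor on all arrays, 1 point per gene. Nuclear genes run along the rising diagonal, while 13 of the 22 genes lie in the upper left and 4 in the lower right quadrant; after scaling on the spiked controls these counts are 9 and 6, and centred on chloroplast-encoded genes 7 and 7.

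Set side by side, the classes overlapped in every comparison. In total RNA the median log2 hypoxia ratio was -0.21 for the 15 ribosomal protein genes (from -0.87 to 3.02), -0.45 for the 4 polymerase genes (from -1.26 to 2.26) and -0.75 for matK, clpP and accD (from -0.99 to -0.43), with -0.06 for all 7640 genes measured; the ribosomal median was 0.092 after scaling on the spiked controls and 0.062 when centred on chloroplast-encoded genes. In large-polysome RNA the medians were 0.36 (from -1.62 to 1.45), 0.94 (from -0.44 to 1.61) and 0.53 (from 0.48 to 1.32), with -0.07 for all 7315 genes; the ribosomal median was -0.00097 on the spiked controls and -0.16 when centred on chloroplast-encoded genes. The polymerase median was 0.57 and 0.41 on these scalings, and that of matK, clpP and accD 0.16 and 0.00049. Scaling on the spiked controls moved the median of all genes by 0.28 in total RNA and by -0.31 in large-polysome RNA. Relative to all genes the ribosomal medians were -0.13 and 0.38 on the spiked controls, against -0.15 and 0.44 before. Within the ribosome, the small-subunit genes had medians of -0.32 in total RNA and 0.22 in large-polysome RNA, and the large-subunit genes -0.02 and 0.40. None of 8 small-subunit and 3 of 7 large-subunit genes reached 2-fold in the upward direction on polysomes, against 8.07% of all genes. These 3 are rpl14, rpl16 and rpl36, which lie near each other, and the difference was not tested. Of all 22 genes, 2 were at least 2-fold higher on the spiked controls and 1 when centred on chloroplast-encoded genes.

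Large-polysome over total signal describes the share of an RNA on large polysomes compared with the average RNA of the same arrays. In control seedlings the medians (log2) were near the average or below it, at -0.02 for ribosomal protein genes, which was 0.064 after quantile normalization and 0.66 on the spiked controls, at -0.14 for polymerase genes, which was 0.47 on the spiked controls, and at -0.81 for the 3 other genes, which was -0.14 on the spiked controls and 0.020 with the inverted-repeat probe sets added, where all genes had -0.02. The spiked controls moved the median of all genes by 0.62 here, and relative to it the ribosomal and polymerase medians were 0.064 and -0.12 on that scale. At least 2-fold higher on large polysomes were 2 of the 22 genes, rps16 (log2 1.15) and rpl20 (1.02), against 2.08% of all genes. At least 2-fold lower were 3, clpP (-1.25), rpl16 (-1.09) and rpoC2 (-1.03), against 2.78%, so that 5 of 22 passed 2-fold in either direction against 4.86%. None of the 22 genes was 2-fold lower on the spiked controls (4 higher) or when centred on chloroplast-encoded genes (3 higher). The 47 other chloroplast-encoded genes had a lower median of -0.50, a difference from the 22 genes (-0.13) that was not tested. Of these 47 genes, 7 were at least 2-fold higher and 10 lower.

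In hypoxia, 3 of 4 polymerase genes and the 3 other genes stood above the average RNA on large polysomes. The medians (log2) were 1.25 for all 4 polymerase genes and 0.98 for the 3 others, against -0.02 for all genes. Ribosomal protein genes had 0.21, which was -0.035 when centred on chloroplast-encoded genes. At least 2-fold higher were 6 of the 22 genes against 1.06% of all genes, and these were rpoC2 (log2 1.84), rpoC1 (1.46), rps2 (1.41), clpP (1.06), rpoA (1.04) and rps15 (1.03). At least 2-fold lower were 3 against 1.07%, and these were rps14 (-2.97), rpoB (-2.22) and rps16 (-1.11). Together 9 of 22 passed 2-fold against 2.13%. Centred on chloroplast-encoded genes, 3 were higher and 4 lower. Of the 47 other chloroplast-encoded genes, 4 were at least 2-fold higher and 7 lower without this centring. For rps14, rpoB and rps16 the large-polysome intensities in hypoxia of 144, 143 and 148 were close to the floor. The polymerase class was thus split, with rpoA, rpoC1 and rpoC2 above and rpoB below the average RNA by over 2-fold.

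**Figure D3:**
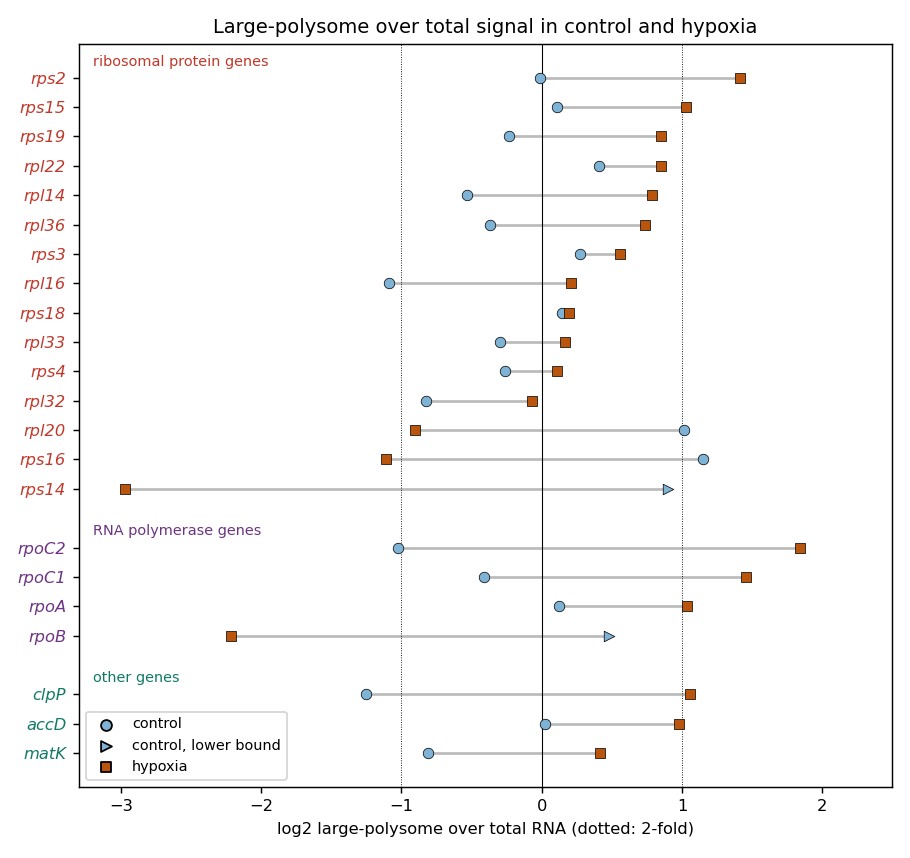
Large-polysome over total signal (log2 ratio) for each of the 22 genes in control (circles; triangles for lower bounds) and in hypoxia (squares), joined by a line and ordered within each class by the value in hypoxia; dotted lines mark 2-fold. The genes rps14, rps16, rpl20 and rpoB have a lower ratio in hypoxia than in control and the other 18 a higher one. Scaling on the spiked controls moves the median of all genes in this difference by -0.65, which is more than the smallest of these differences.

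The change of association, the log2 difference between the ratios in hypoxia and control, could be computed for 20 genes, since all 4 arrays had to exceed the floor, which leaves out rpoB and rps14. It was above 0 for 18 of these 20 genes and below 0 for rps16 (-2.26) and rpl20 (-1.92). Above 0 were also 36 of 46 other chloroplast-encoded genes and 2864 of all 5847 genes measured. At least 2-fold higher were 9 of the 20 genes against 3.03% of all 5847 genes measured, led by rpoC2 at 2.87, clpP at 2.31, rpoC1 at 1.86, rps2 at 1.43, rpl14 at 1.32, rpl16 at 1.297 and matK at 1.23, with rpl36 at 1.11 and rps19 at 1.08. At least 2-fold lower among the 20 were rps16 and rpl20, against 1.9%, together 11 of 20 against 4.93%. On the spiked controls, 3 of 19 genes passed 2-fold upwards and 1 downwards, as that scaling moved the median of all genes by -0.65. The signs of the smallest changes, given next, thus depend on the scaling. The smallest changes were those of rps18 (0.05), rps3 (0.28), rps4 (0.37), rpl22 (0.44) and rpl33 (0.46), and accD (0.96), rps15 (0.92), rpoA (0.91) and rpl32 (0.75) lay just under 2-fold. Pairs of probe sets differed in this measure by a median of 0.47 (30 genes) and a 95th percentile of 1.02.

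By class the median change of association was 0.61 for 14 ribosomal protein genes, which was 0.086 on the spiked controls, 1.86 for the 3 polymerase genes rpoA, rpoC1 and rpoC2, and 1.23 for matK, clpP and accD. The polymerase median was higher than the ribosomal one by 1.26. This difference was 1.23 after quantile normalization, 1.11 on the spiked controls and 0.92 with a pseudocount of 16, the only setting that includes rpoB. The other settings left it at 1.26. Of these, centring, the mean of probe sets and leaving out rpoB and rps14 could not have moved it. The lowest of these 3 polymerase genes, rpoA, stood below 6 of the 14 ribosomal protein genes, so the classes overlap. The gene rpoB, left out by the floor, had a change of at most -2.70, where the lowest of the 14 had -2.26. The ribosomal protein gene rps14, likewise left out, had at most -3.87. The 46 other chloroplast-encoded genes had a median of 0.74, with 19 of them at least 2-fold higher and 7 lower. Centred on the median of all chloroplast-encoded genes, the classes stood at -0.20, 1.05 and 0.42, so that the ribosomal median lay below the chloroplast median by less than the median difference between probe sets, with 6 of the 14 ribosomal protein genes above it.

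Neighbours on the chloroplast genome often differed. In the gene order of the RefSeq annotation, 26 adjacent pairs held at least 1 of the 22 genes and a second gene with values. The 2 genes of a pair had opposite signs in total RNA in 14 of these pairs and in large-polysome RNA in 11. They differed by 1 or more on the log2 scale in 13 and 11 pairs. Of all 69 chloroplast-encoded genes, 28 were higher in hypoxia in total RNA and 54 in large-polysome RNA. Pairs of genes that are not adjacent were not counted, and the 26 pairs mix genes transcribed together with genes that are only adjacent. Whether neighbours differ more or less than other pairs was not tested. The gene rps14, which is known to be transcribed with the photosystem I genes psaB and psaA, stood at 3.02 or more in total RNA against -0.80 for psaB, and at -0.85 in large-polysome RNA against 1.14. The gene rps2 is known to be transcribed with genes of the ATP synthase, and stood at -0.56 and 0.87 against 2.16 and -0.44 for its neighbour atpI. Other neighbours in the same transcription unit had the same signs in both fractions, such as rpoC1 and rpoC2, rpl14 and rpl16, and rpl33 and rps18. The gene petD is only adjacent to rpoA, not in its transcription unit, and had 2.97 and -1.88, against -0.35 and 0.56 for rpoA. Likewise only adjacent, rpoB and petN were alike at 2.26 or more and 2.09 in total RNA. In large-polysome RNA rpoB and petN had -0.44 and -0.76.

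Within the group of neighbours that runs from rps19 to rpl36, whose 6 named genes are transcribed together, all 6 were higher in large-polysome RNA in hypoxia. Their log2 ratios there ranged from 0.07 for rps3 to 1.45 for rpl16, with a median of 0.87, and in total RNA from -0.43 for rps19 to 0.16 for rpl16. In large-polysome RNA 38 of 47 other chloroplast-encoded genes were higher as well, and 3311 of all 7315 genes measured. The ratios of rps3 and rpl22 (0.20) were smaller than the shift of all genes by the spiked controls (-0.31) or by centring on chloroplast-encoded genes (-0.53). The 4 intron-containing genes rpl16, rps16, rpoC1 and clpP did not run together, with log2 ratios in large-polysome RNA of 1.45, -1.62, 1.31 and 1.32. The 4 genes known to be read mainly by the phage-type polymerase from the nucleus, rpoB, rpoC1, rpoC2 and accD, were likewise split, with log2 ratios in total RNA of at least 2.26, -0.55, -1.26 and -0.43.

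**Figure D4:**
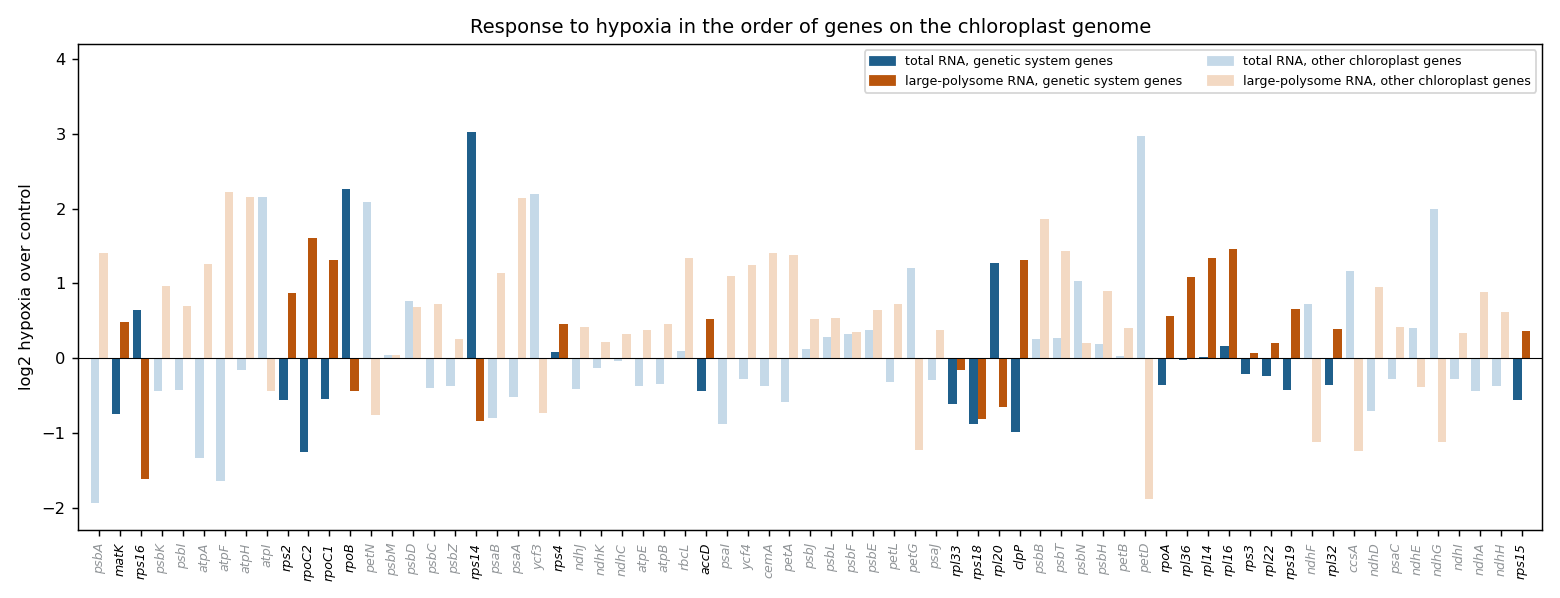
Log2 ratio of hypoxia over control in total RNA (blue) and large-polysome RNA (orange) for the 69 chloroplast-encoded genes in their order on the genome, with the 22 genetic system genes in dark colours. Bars of rps14, rpoB and ndhF start from a control signal below the floor in total RNA and are bounds, as is the large-polysome bar of ndhF; adjacent genes such as rpoB and rpoC1 or rps14 and psaB point in opposite directions.

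Nuclear genes for partners of these proteins could be followed in part. Of 40 plastid ribosomal protein genes in the nucleus, 10 had a named probe set. Of these 10, 9 were higher in total RNA in hypoxia, against 3512 of all 7640 genes measured. The median log2 ratio of the 10 genes was 0.36, with none at 2-fold. They ranged from -0.18 for AT3G13120 to 0.61 for AT5G47190. In large-polysome RNA their median was -0.05, from -0.74 for AT2G43030 to 0.50 for AT4G01310. Their change of association was below 0 in 9 of 10, against 2983 of all 5847 genes measured. The median of the 10 genes was -0.39, where the chloroplast-encoded ribosomal protein genes had 0.61 and the 46 other chloroplast-encoded genes 0.74. Of 14 nuclear Clp subunit genes, 5 had a named probe set, and all 5 had a change of association below 0 (median -0.58), against 2.31 for clpP. In hypoxia over control AT4G12060 was lowest, at -0.64 in total RNA and -1.29 in large-polysome RNA, and AT1G09130 highest, at 0.34 and 0.01. AT4G25370 had the lowest change of association, at -0.69, and CLPP4, a proteolytic subunit like ClpP1, had 0.01 in total RNA and -0.18 in large-polysome RNA. These lists share the arrays with the chloroplast-encoded genes, and the differences between them were not tested. Of 14 genes for phage-type polymerases and partners of the plastid polymerase only AT5G15700 had a named probe set, and it was below the floor on all arrays. Of 9 nuclear genes for partners of YCF1 and YCF2 only MDH, a malate dehydrogenase, had a named probe set, with log2 hypoxia ratios of -0.76 in total RNA and -1.08 in large-polysome RNA. No probe set was named for 6 sigma factors and 4 nuclear subunits of acetyl-CoA carboxylase.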

How the data were processed

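Total and large-polysome RNA of 4 seedling samples was measured on 4 ATH1 arrays. The authors' deposited values were linear intensities, 1 per probe set, on which each array had the same trimmed mean; for probe summary software, background correction and RNA labelling, nothing was given in the sources. Other fields of the array files (module, lot, number of scans) were read per the file headers; the array of total RNA in hypoxia was scanned 2 times, the others 1 time.

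Intensities of the 22746 non-control probe sets were rescaled to a common mean, trimmed at percentiles 2 and 98 (factors 0.999 to 1.001). Before log2 they were raised to a floor of 139, taken as the array maximum of percentile 40. Between 54.7% and 60.01% of these probe sets were above it. Genes below it on both sides of a ratio had none, and the change of association needed all 4 arrays. Of the probe sets, 13513 had 1 gene entry in the platform annotation, 503 had several and 8730 were not listed; 13436 of the 1-gene probe sets matched RefSeq (TAIR10.1), used for names and gene order only. The highest probe set represented a gene. Every one of the 22 members is named, with genes of the nuclear lists chosen among their extremes or at 2-fold and neighbours in a shared transcription unit (petN, petD and ndhF, adjacent only, were chosen after their values were seen). Members and lists were chosen with earlier results of these data known. With 1 array per group no test was run; ratios were checked on simulated data. Alternatives were a 60th percentile floor, a pseudocount of 16 without a floor, quantile normalization, scaling on 18 spiked control probe sets, centring on chloroplast-encoded genes and the mean of probe sets; 2 more were chosen after seeing the data. The number of arrays limits the precision. Python 3.11.15, numpy 2.4.6 and pandas 2.3.3 were used.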

Additional observations from a re-analysis of the deposited data

Results flagged for a closer look

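The hypoxia response had opposite signs in total and in large-polysome RNA for 17 of the 22 genes, 1 array per group standing on each side, and the difference was not tested. The log2 response in large-polysome RNA minus that in total RNA was 2.87 for rpoC2, 2.31 for clpP, 1.86 for rpoC1, 1.43 for rps2, 1.23 for matK, 1.11 for rpl36, 1.08 for rps19, 0.96 for accD, 0.92 for rps15, 0.91 for rpoA, 0.75 for rpl32, 0.44 for rpl22 and 0.28 for rps3. For rps14 and rpoB, which were below the floor in total RNA of control seedlings, only a bound can be given, at most -3.87 and at most -2.70. It was -2.26 for rps16 and -1.92 for rpl20. The same contrast held opposite signs in 35 of 47 other chloroplast-encoded genes and in 20.8% of 6965 nuclear genes.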

How the results depend on the processing

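No paired analysis was possible because each group has 1 array, and no array could be left out. Of 160 values recomputed under 8 settings, 133 were counted as the same, 15 moved further and 12 changed sign. A value counted as the same when it kept its sign and moved by less than the median difference between probe sets of a gene. Counts, taken in both directions together, had to stay within 1.5 times. Among the 133 are thus counts whose balance of higher and lower turned. In large-polysome RNA 6 higher and 1 lower in hypoxia became 2 and 4 on the spiked controls. Centring on chloroplast-encoded genes gave 1 and 4 there. Association in control went from 2 higher and 3 lower to 4 and 0 on the spiked controls. The 133 include values that could not move, among them all 20 under the mean of probe sets, as each of the 22 genes has 1 probe set. Leaving out rpoB and rps14 could not move the change of association or the medians of matK, clpP and accD. Scaling on the spiked controls turned the ribosomal medians to 0.092 in total RNA, -0.00097 in large-polysome RNA and 0.66 for association in control, where it gave 0.47 for polymerase genes and -0.14 for the other genes. On it the change of association was 0.086 for ribosomal, 1.196 for polymerase and 0.56 for other genes, with 4 members at 2-fold; the common shift of all genes by that scaling enters each of these values. Centring on chloroplast-encoded genes gave ribosomal medians of 0.062 and -0.16 for hypoxia in total and large-polysome RNA, 0.39 and -0.035 for association in control and in hypoxia and -0.20 for the change. It gave polymerase medians of 0.41, 0.26 and 1.05 and other-gene medians of 0.00049 and 0.42 for hypoxia in large-polysome RNA, association in control (polymerase only) and the change, with 3 members at 2-fold in control and 5 for the change. Quantile normalization gave 0.064 for ribosomal genes in control association. The polymerase median in large-polysome RNA was 1.31 with the floor at the 60th percentile or without rpoB and rps14, which also left 2 members at 2-fold in total RNA (the latter setting chosen after seeing the data). With no floor and a pseudocount of 16 the change for 4 polymerase genes was 1.38. With probe sets of both inverted-repeat copies, chosen after seeing the data, the other genes had 0.020 in control association. Signals close to the floor limit rps14, rps16 and rpoB most.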
